A study of Mus musculus with 17 samples.

Results

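The genes described here are 41 genes of the contractile apparatus and of calcium handling in skeletal muscle, chosen by symbol from the 16593 genes that had a named probe on the arrays. Of the 41, 37 had a probe, and their 56 probes were reduced to the brightest probe of each gene, the one with the highest mean over all arrays. Myh2, Tnnt2, Mybph and Cacna1s had no listed probe and are not analysed here. The list holds 13 genes typical of fast fibres (12 with a probe), 9 typical of slow fibres (9 with a probe), 4 embryonic or cardiac isoforms (3 with a probe), 5 sarcomere genes shared between fibre types (4 with a probe) and 10 genes of calcium handling (9 with a probe).

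The samples were tibialis anterior muscles, the fast muscle at the front of the shin, from male mice aged 8 weeks, taken at day 3 and measured on 17 single-colour bead arrays. In the immobilization experiment, 3 arrays came from mobile hindlimbs of littermate control mice, 3 from immobile hindlimbs of littermate control mice and 3 from immobile hindlimbs of p53 mKO mice. In the transfection experiment, 4 arrays came from muscles transfected with a control plasmid and 4 from muscles transfected with a p53 plasmid, all in mice labelled C57BL/6. The labels neither spell out mKO nor give the promoter of the plasmids, the share of fibres transfected, the strain of the mice in the immobilization arrays or the limbs that came from the same mouse. No listed probe was paired with Trp53, the gene of p53, so neither the knockout nor the plasmid was checked at that gene. Each array counts as 1 sample, so the p-values measure the scatter among arrays, part of which may be technical.

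A muscle fibre shortens when myosin heads of the thick filament pull on actin of the thin filament. Troponin and tropomyosin on the thin filament uncover the binding sites once calcium rises, and fast and slow fibres build this machine from different isoforms. Calcium leaves the sarcoplasmic reticulum through the ryanodine receptor at the triad, where junctophilins hold the membranes together. Calsequestrin stores calcium inside the reticulum and SERCA pumps return it there, while sarcolipin restrains the pump. p53 is a transcription factor of the stress response, and an immobilized limb loses muscle mass within days.

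Values are on a log scale taken as log2, running from 8.21 to 15.61, with array medians between 8.48 and 8.5. Both ends of this scale compress differences. Myl1, Mylpf, Tnnc2, Tnni2, Acta1, Tpm2, Atp2a1 and Pvalb, 8 of the 37 genes, had means of at least 15.11, within 0.5 of the highest value in the table, and are called near the ceiling. Myh7, Myoz3, Mylk2, Tnni1 and Jph2 lay near the floor. The arrays carried the defining transcripts of skeletal muscle at high levels, with Ckm, the muscle creatine kinase, between 14.84 and 15.42 over all arrays, Eno3 between 15.07 and 15.43 and Des, desmin, between 14.05 and 14.58. In whole muscle, fewer fibres and less RNA per fibre cannot be told apart.

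Among the promoters of the genes, 4 are printed because they belong to genes that the results below turn on, 3 that were lower in immobile limbs or with the p53 plasmid and 1 that was higher with it. Sequences are the 250 bases before the start of transcription from RefSeq on GRCm38.p6, each on the minus strand, written 5′ to 3′. Capitals mark an E-box (CANNTG, the letters bound by MyoD family factors), a MEF2 box, a CArG box (the box of serum response factor) or a p53 half-site, searched on both strands.
Myoz2, chr3:123034988-123035237, with 1 MEF2 box and 2 E-boxes: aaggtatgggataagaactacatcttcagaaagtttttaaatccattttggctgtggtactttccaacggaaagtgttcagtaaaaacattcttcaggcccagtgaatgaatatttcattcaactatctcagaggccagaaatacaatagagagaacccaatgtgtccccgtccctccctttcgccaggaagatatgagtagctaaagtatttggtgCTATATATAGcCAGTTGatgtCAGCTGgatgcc
Actc1, chr2:114052876-114053125, with 1 CArG box: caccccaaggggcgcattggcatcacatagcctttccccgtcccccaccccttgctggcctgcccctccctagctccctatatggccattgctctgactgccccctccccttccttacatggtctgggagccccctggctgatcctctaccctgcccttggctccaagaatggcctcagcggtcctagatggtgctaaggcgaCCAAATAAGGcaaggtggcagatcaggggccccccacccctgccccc
Casq1, chr1:172219896-172220145, with 2 E-boxes: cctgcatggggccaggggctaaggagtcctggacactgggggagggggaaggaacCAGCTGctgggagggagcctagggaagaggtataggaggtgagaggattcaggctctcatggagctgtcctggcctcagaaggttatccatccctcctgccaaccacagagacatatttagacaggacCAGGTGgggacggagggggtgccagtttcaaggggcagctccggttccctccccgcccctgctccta
Tpm1, chr9:67049214-67049463, with 1 E-box and 1 p53 half-site: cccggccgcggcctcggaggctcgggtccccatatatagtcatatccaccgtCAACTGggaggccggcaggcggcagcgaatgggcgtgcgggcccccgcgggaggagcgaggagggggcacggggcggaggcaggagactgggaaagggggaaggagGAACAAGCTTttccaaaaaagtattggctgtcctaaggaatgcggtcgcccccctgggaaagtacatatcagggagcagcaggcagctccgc

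Promoters were listed for 32 of the 41 genes, in 39 entries. An E-box stood in 84.615% of these entries and in 66.217% of all 32851 promoters. A MEF2 box stood in 15.385% against 2.919%, a CArG box in 10.256% against 1.467%, the letters TATAAA in 20.513% against 12.368% and a p53 half-site in 7.692% against 7.126%. A match describes these letters in this window and says nothing of binding.

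The first comparison, immobile against mobile limbs of the littermate controls, shows how the contractile and calcium genes stood at day 3 of immobilization. Sln, the gene of sarcolipin, rose 2.21-fold, and 4 genes fell. These were Myl2, the slow regulatory light chain of myosin, Myoz2 and Myoz1, the slow and fast calsarcins that tie calcineurin to the Z-disc, and Jph2, the junctophilin that heart muscle shares. Apart from Myoz1, no fast isoform passed the test on its brightest probe. In all, 1 of 37 listed genes rose and 4 fell, beside 5.1% higher and 6.36% lower among all genes tested (limma, adjusted p under 0.05).

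Myoz2 gave the most even fall. Its level was 12.10, 12.10 and 12.11 on the 3 mobile control arrays and 11.39, 11.34 and 11.23 on the 3 immobile control arrays. The mobile arrays were nearly identical and all stood above the immobile ones. The log2 difference was -0.78 ± 0.05 (SE), a 1.72-fold fall (limma, adjusted p = 0.000107).

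Myl2 fell further, but with more spread. Its level was 12.24, 12.77 and 13.02 on the mobile arrays and 10.98, 10.80 and 11.12 on the immobile control arrays, with no overlap. The fall was 3.27-fold (log2 difference -1.71 ± 0.34 SE, adjusted p = 0.017). Omission of any of 3 arrays ended the call, with adjusted p = 0.0714 and 0.0675 for mobile control arrays 2 and 3 and 0.0521 for immobile control array 2. Myl3, the slow essential light chain, stood at 12.60, 12.22 and 13.07 in mobile limbs and 11.49, 11.77 and 12.33 in immobile control limbs. Its groups overlapped and it was not called (log2 difference -0.77 ± 0.29 SE, adjusted p = 0.136).

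No other slow isoform passed the test. Myh7, the slow myosin heavy chain, read 8.48, 8.41 and 8.47 in mobile limbs and 8.45, 8.45 and 8.39 in immobile control limbs, values at the floor of the array that leave its direction unmeasured. Tnnc1, Tnni1 and Tnnt1, the slow troponins, had log2 differences of 0.15 ± 0.18, 0.08 ± 0.05 and 0.28 ± 0.21 (SE) and were not called. Of the 9 slow isoforms tested, 0 rose and 2 fell, with a median log2 difference of -0.02, against 0.00 over all genes tested.

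The fast myosin heavy chains did not pass the test. Myh1, the heavy chain of type 2X fibres, read 14.07, 13.94 and 14.04 in mobile limbs and 13.97, 13.93 and 14.23 in immobile control limbs. Myh4, the heavy chain of type 2B fibres and the main one of this muscle, read 15.16, 15.00 and 14.92 against 14.92, 15.05 and 15.22. The groups overlapped for both, with log2 differences of 0.03 ± 0.08 and 0.04 ± 0.10 (SE). Of 12 fast isoforms tested, 0 rose and 1 fell, with a median log2 difference of -0.06. Among them Myl1, Mylpf, Tnnc2 and Tnni2 lay near the ceiling, where differences are compressed. The dimmest probes of Myl1 (log2 difference -0.61, adjusted p = 0.15) and Actn3 (-0.52, adjusted p = 0.124) were lower on every immobile control array but were not called. The dimmer probe of Myh1 gave 0.02.

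The fast gene that fell was Myoz1, at 14.45, 14.43 and 14.31 in mobile limbs and 13.98, 14.15 and 14.07 in immobile control limbs. The groups did not overlap, and the log2 difference was -0.33 ± 0.07 (SE, adjusted p = 0.0257). This small fall missed the threshold when 1 of 4 arrays was omitted, with adjusted p = 0.0848 and 0.102 for mobile control arrays 1 and 2 and 0.0612 and 0.0514 for immobile control arrays 1 and 3. Without mobile control array 2 the count of listed genes that fell was 2 in place of 4, and without immobile control array 3 the count that rose was 2 in place of 1. In a fit of all 17 arrays Myoz1 also missed the threshold (adjusted p = 0.0837).

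Among the calcium genes, Sln read 9.41, 9.22 and 9.21 in mobile limbs and 10.10, 10.61 and 10.56 in immobile control limbs. Every immobile array stood above every mobile one (log2 difference 1.14 ± 0.13 SE, adjusted p = 0.00183). The call was lost in a fit of all 17 arrays, where the error is estimated with the plasmid arrays (adjusted p = 0.056). Jph2 was dim, at 9.05, 9.20 and 9.12 against 8.76, 8.73 and 8.74, again with no overlap (log2 difference -0.38 ± 0.05 SE, adjusted p = 0.00277). Jph2 lies close to the floor of the array, where the scale compresses differences, and its fold was 1.30.

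Casq1 and Jph1, the calsequestrin and the junctophilin of skeletal muscle, were lower in every immobile control array but did not pass the test. Casq1 read 13.42, 13.50 and 13.51 in mobile limbs and 12.54, 12.65 and 11.21 in immobile control limbs. Jph1 read 11.99, 11.85 and 11.86 against 11.31, 11.63 and 9.78. In both genes immobile control array 3 stood more than 1 log2 unit below its neighbours, and the log2 differences were -1.34 ± 0.44 (SE, adjusted p = 0.0971) and -0.99 ± 0.59 (adjusted p = 0.335). Casq1 passed in a fit of all 17 arrays (adjusted p = 0.0182).

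The immobile p53 mKO array that also carries the number 3 showed the same low values, 11.27 for Casq1 and 9.62 for Jph1, against 12.55 and 12.48 and 11.37 and 11.43 on the other arrays of that group. An alternative chosen after these values were seen left out both immobile arrays numbered 3. In it 2 listed genes rose and 9 fell, and Casq1 (log2 difference -0.88, adjusted p = 0.000807), Jph1 (-0.43, adjusted p = 0.034), Myl3 (adjusted p = 0.0358) and Myl4 (1.19, adjusted p = 0.0078) passed the test. What sets those arrays apart was not tested.

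Ryr1, the calcium release channel, read 14.81, 14.76 and 14.93 in mobile limbs and 14.71, 14.84 and 14.96 in immobile control limbs, overlapping on this, its brightest probe. The dimmest of its 4 probes read 10.43, 10.31 and 10.28 against 9.62, 9.81 and 9.96 and was called lower (log2 difference -0.54, adjusted p = 0.007), while the other 3 were not called. So the result for Ryr1 turned with the probe. Atp2a2, the slow and cardiac SERCA pump, read 11.48, 11.34 and 11.72 against 11.61, 11.74 and 11.46 and was not called. Atp2a1, the fast SERCA pump, and Pvalb, the calcium buffer parvalbumin, lay near the ceiling and had log2 differences of -0.06 ± 0.05 and 0.00 ± 0.07 (SE). Of 9 calcium genes tested, 1 rose and 1 fell, with a median of -0.06.

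Of the embryonic or cardiac isoforms, Myl4, the embryonic and atrial essential light chain, read 10.65, 10.78 and 10.64 in mobile limbs and 12.17, 11.58 and 11.03 in immobile control limbs. All 3 immobile arrays stood higher, and the difference missed the threshold (log2 difference 0.90 ± 0.25 SE, adjusted p = 0.0575), passing it without immobile control array 3 (1.19, adjusted p = 0.00876). Actc1, cardiac actin, read 11.91, 12.68 and 12.35 against 11.94, 11.43 and 11.21, with an overlap by mobile control array 1 (-0.79 ± 0.22 SE, adjusted p = 0.0609). It passed without mobile control array 1 (adjusted p = 0.0336) or immobile control array 1 (adjusted p = 0.0214). Its second probe read 10.11, 10.51 and 10.48 against 9.77, 9.50 and 9.64 and was called lower (-0.73, adjusted p = 0.00795), and the mean of both probes passed as well (-0.76, adjusted p = 0.0205). Myh8, the perinatal heavy chain, read 9.69, 9.22 and 9.15 against 10.14, 9.86 and 9.23 and was not called. Myh8 lies next to Myh4 in the cluster of heavy chain genes on chromosome 11, where the order is Myh3, Myh2, Myh1, Myh4, Myh8 and Myh13.

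Tpm3, whose brightest probe read 9.94, 9.90 and 10.01 in mobile limbs, spread from 9.16 to 11.34 in immobile control limbs and was not called (log2 difference 0.30 ± 0.51 SE). The mean of 8 macrophage markers ordered the immobile control arrays the same way, at 11.54, 10.49 and 10.02 on arrays 1 to 3, against 9.61 to 9.69 in mobile limbs, with 1 of 8 markers called higher. In immobile p53 mKO limbs Tpm3 read 10.43, 10.25 and 9.32 and the macrophage mean 10.69, 10.57 and 10.07. Of 5 tested markers of regenerating fibres, 3 were called higher in immobile control limbs (median log2 difference 0.99), and of 7 skeletal muscle markers 3 were called lower (median -0.13). The part of these cells in the spread of Tpm3 or in the other immobilization differences was not tested. Tpm2, beta-tropomyosin, was not called on its brightest probe near the ceiling (-0.05), while the dimmest of its 3 probes was called lower with immobilization (-0.49, adjusted p = 0.0191).

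**Figure D1:**
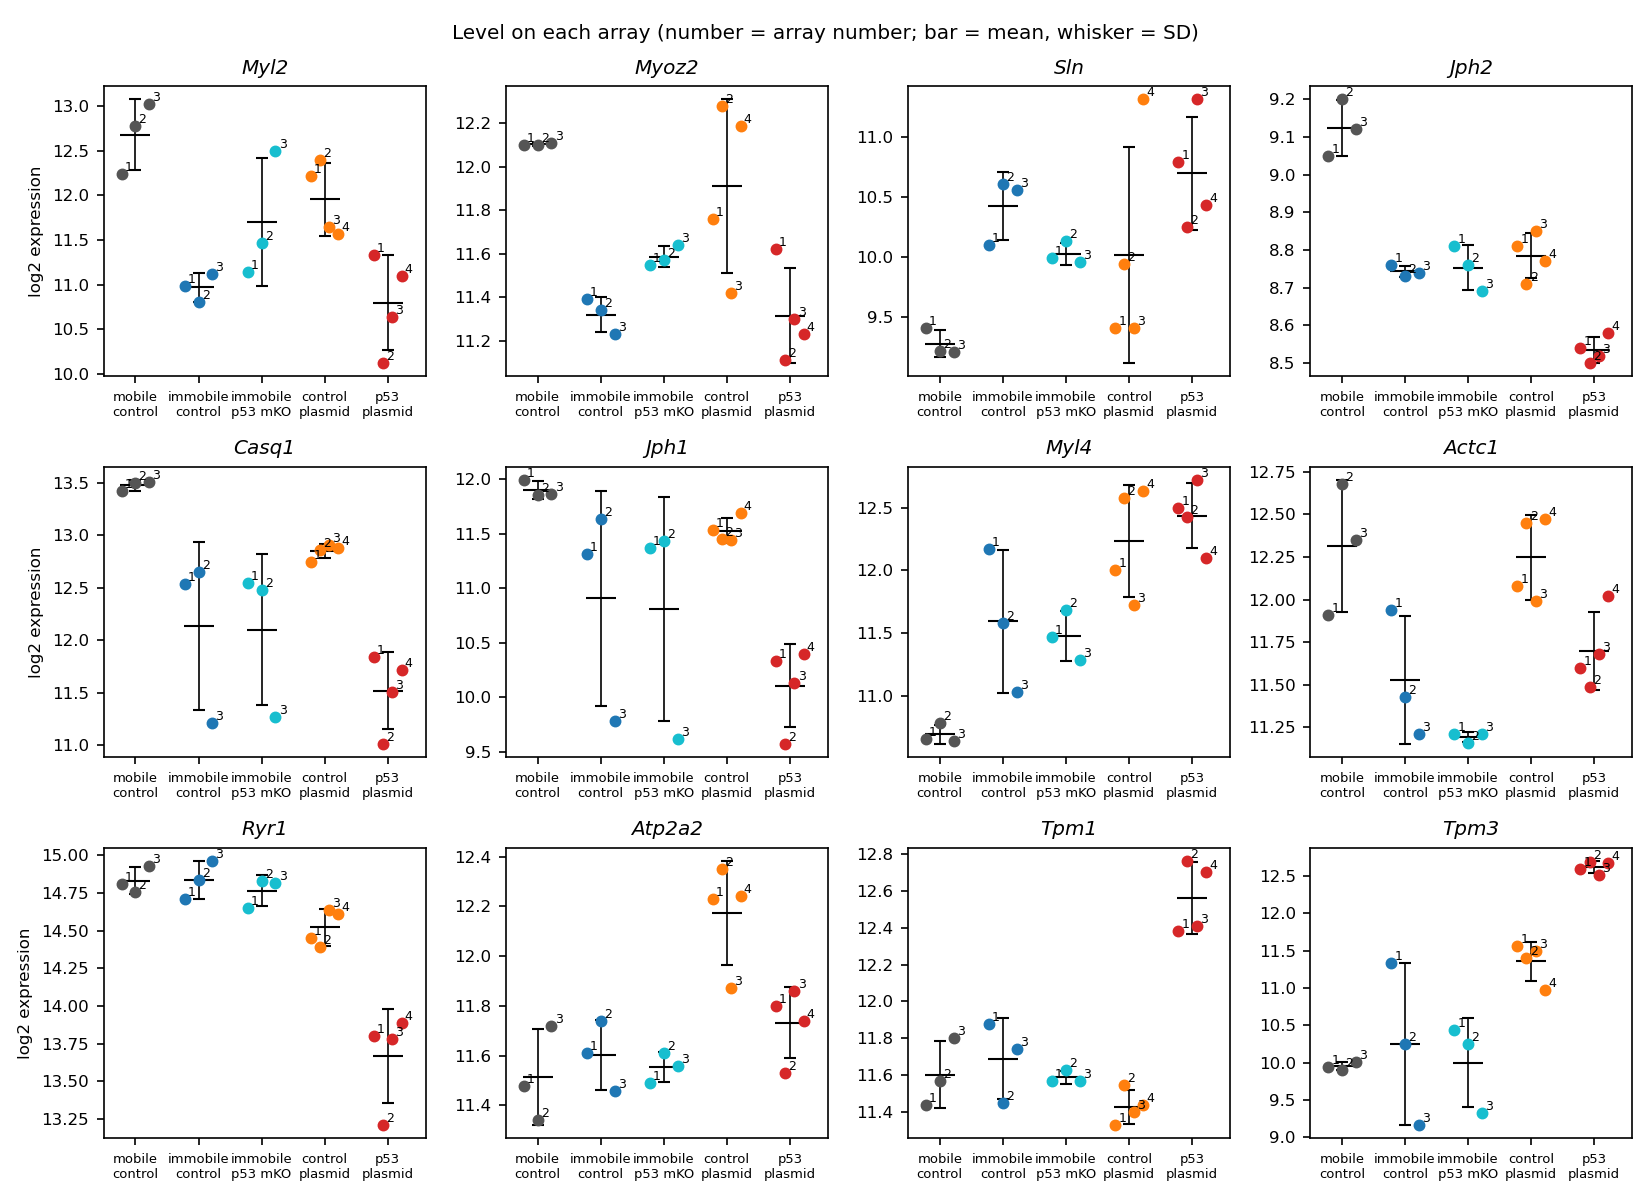
Log2 expression (y axis) of 12 listed genes on each of the 17 arrays, by sample group (x axis). Points are arrays with their number, bars are group means and whiskers are SDs. Myoz2 lies between 12.10 and 12.11 in mobile limbs and between 11.23 and 11.39 in immobile control limbs, and the 2 immobile arrays numbered 3 stand apart at Casq1 and Jph1.

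Immobile p53 mKO limbs were compared with immobile control limbs to ask whether the p53 mKO genotype changes these genes in immobilized muscle. No listed gene passed, 0 of 37 in either direction, and of the 10842 genes in the test 0% were called (limma, adjusted p under 0.05). At an unadjusted p under 0.05 there were 2 listed genes, against 2.94% of all genes. The fit with the array number as a block also called 0 in either direction.

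The 2 genes were Myoz2 and Sln, and in both the p53 mKO mean lay between those of mobile and immobile control limbs. The genotype and immobilization comparisons share the immobile control arrays. Scatter in those arrays alone can place the p53 mKO mean there, and neither gene was called between the genotypes. Myoz2 read 11.55, 11.57 and 11.64 in immobile p53 mKO limbs, all above the immobile control arrays (log2 difference 0.27 ± 0.05 SE, 95% confidence interval 0.16 to 0.38, adjusted p = 1). Sln read 9.99, 10.13 and 9.96, overlapping with immobile control array 1 (log2 difference -0.40 ± 0.13 SE, interval -0.70 to -0.09, adjusted p = 1).

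Myl2 had the widest difference of the list, with 11.14, 11.46 and 12.50 in immobile p53 mKO limbs, each above every immobile control array. Its array 3 was the highest by about 1 log2 unit, and the log2 difference of 0.73 had an interval from -0.06 to 1.52. With the array number as a block the interval was 0.18 to 1.28, with adjusted p = 0.993. At the other genes the differences were between -0.46 (Myh8) and 0.12 (Mylpf, the fast regulatory light chain), none called. With that block the intervals of Myh8 (-0.78 to -0.13), Sln (-0.73 to -0.06) and Myoz2 (0.14 to 0.40) left out 0 as well, and these genes were not called either. Myh1 read 14.12, 14.06 and 14.05, with an interval of the difference from -0.15 to 0.22. Myh4 read 14.98, 14.92 and 15.17, with an interval from -0.27 to 0.19. Casq1 had an interval from -1.06 to 0.99. Arrays with the same number differed by 0.01, -0.17 and 0.06 between the genotypes. With the array number as a block the interval was -0.77 to 0.71.

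Immobile p53 mKO limbs were also set against mobile control limbs. This shares the mobile arrays with the first comparison and the p53 mKO arrays with the comparison of the immobile genotypes. Sln rose and Myoz2, Actc1 and Jph2 fell, 1 and 3 of 37 genes, where 4.47% of all genes rose and 5.28% fell. Actc1 read 11.21, 11.16 and 11.21 in immobile p53 mKO limbs, below every mobile array, a log2 difference of -1.12 ± 0.22 (SE, adjusted p = 0.019). Sln stood 0.75 ± 0.13 higher (adjusted p = 0.0125), Myoz2 0.52 ± 0.05 lower on the log2 scale (difference -0.52, adjusted p = 0.000822) and Jph2 had a difference of -0.37 ± 0.05 (adjusted p = 0.00375). In a fit of all 17 arrays the calls of Sln (adjusted p = 0.222) and Myoz2 (0.0592) were lost. The dimmest probes of Ryr1 (-0.54) and Tpm2 (-0.47) were called lower here too, their brightest probes not.

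The Actc1 call needed several arrays, since adjusted p = 0.0674 without mobile control array 2, and 0.0708 without mobile control array 3, and it was also lost without immobile p53 mKO array 1 (0.0584), array 2 (0.0649) or array 3 (0.0532). The Sln call was lost without mobile control array 2 (0.0581) or array 3 (0.0534), which leaves a count of 0 genes higher. Without immobile control array 1 or array 3, whose group shares the estimate of the spread in this fit, the count of genes higher was 2, and without array 3 the count lower was 5. Myl2 joined the genes called lower without immobile p53 mKO array 3 (log2 difference -1.38, adjusted p = 0.0179). Myl3, at 11.65, 11.68 and 12.28, and Myl4, at 11.47, 11.68 and 11.28, were not called here (log2 differences -0.76 and 0.79).

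With both immobile arrays numbered 3 left out, 2 genes rose and 8 fell, Casq1 (-0.96, adjusted p = 0.000913) and Jph1 (-0.50, adjusted p = 0.0264) among them. The fit with the array number as a block called 1 higher and 9 lower.

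The p53 plasmid was compared with the control plasmid to see which of these genes differ in muscle that was given p53. Most listed genes that differed were lower, in every functional group. Read on the brightest probes, Jph1 and Casq1, at the triad and in the reticulum, fell most, 2.68-fold and 2.51-fold, while the dimmest probe of Actn3, whose brightest lies close to the ceiling, gave a log2 difference of -1.54. The slow light chains Myl3 and Myl2, the fast Z-disc gene Myoz1, the calcium channel Ryr1, the fast thick filament protein Mybpc2 and both alpha-actinins fell as well, while the tropomyosin genes Tpm1 and Tpm3 rose. Of 36 genes tested, 3 rose and 18 fell, and over all genes 30.2% of those tested rose and 28.6% fell (limma, adjusted p under 0.05).

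Jph1 read 11.53, 11.45, 11.44 and 11.69 with the control plasmid and 10.33, 9.57, 10.13 and 10.40 with the p53 plasmid. The groups were more than 1 log2 unit apart (log2 difference -1.42 ± 0.17 SE, adjusted p = 0.000174). Casq1 read 12.75, 12.86, 12.91 and 12.88 against 11.84, 11.01, 11.51 and 11.72 (-1.33 ± 0.16 SE, adjusted p = 0.000186). In both genes p53 plasmid array 2 was the lowest array, and no array overlapped.

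Ryr1 read 14.45, 14.39, 14.64 and 14.61 with the control plasmid and 13.80, 13.21, 13.78 and 13.89 with the p53 plasmid. All 4 of its probes gave a fall, by -0.73 to -0.85 in log2 difference, and its brightest probe gave -0.85 ± 0.14 (SE, adjusted p = 0.0011). Atp2a2 read 12.23, 12.35, 11.87 and 12.24 against 11.80, 11.53, 11.86 and 11.74, the groups being separated by 0.01 between control plasmid array 3 and p53 plasmid array 3 (-0.44 ± 0.11 SE, adjusted p = 0.00872). Jph2 fell from a dim level, with a log2 difference of -0.25 ± 0.04 (SE).

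Sln was scattered, at 9.41, 9.94, 9.41 and 11.31 with the control plasmid and 10.79, 10.25, 11.31 and 10.43 with the p53 plasmid. Control plasmid array 4 equalled the highest p53 plasmid array, and Sln was not called (0.68 ± 0.44 SE, adjusted p = 0.219). Without that array the difference was 1.11 and passed (adjusted p = 0.00903). Casq2, the slow and cardiac calsequestrin, Atp2a1 and Pvalb were not called. Of 9 calcium genes, 0 rose and 5 fell, with a median of -0.25, where the median over all genes tested was 0.00.

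Of the thick filament genes, Myh1 read 14.07, 13.94, 13.88 and 14.08 with the control plasmid and 13.60, 13.41, 13.77 and 13.55 with the p53 plasmid. Myh4 read 14.95, 14.84, 14.93 and 14.90 against 14.71, 14.48, 14.53 and 14.67. Both fell without overlap (log2 differences -0.41 ± 0.08 and -0.31 ± 0.06 SE, adjusted p = 0.00221 and 0.00147). Myh8 read 9.50, 10.54, 9.45 and 10.26 against 9.79, 10.05, 10.08 and 9.84 and Myh7 read 8.53, 8.55, 8.42 and 8.44 against 8.50, 8.41, 8.38 and 8.39, and neither was called.

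Mybpc2, the fast myosin-binding protein C, read 14.62, 14.53, 14.62 and 14.68 with the control plasmid and 13.89, 13.50, 13.95 and 14.14 with the p53 plasmid (-0.74 ± 0.12 SE, adjusted p = 0.000852). Mybpc1, its slow paralogue, read 14.17, 14.01, 13.98 and 14.04 against 13.56, 13.25, 13.69 and 13.61 (-0.52 ± 0.09 SE, adjusted p = 0.00138). The forms grouped here as fast and slow thus both fell, with no overlap of arrays in either. Mybpc1 averaged 14.17 in mobile limbs, where Myh7 averaged 8.45 at the floor. Which fibres its RNA came from was not tested.

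Among the light chains, Myl2 read 12.21, 12.39, 11.64 and 11.57 with the control plasmid and 11.33, 10.12, 10.64 and 11.09 with the p53 plasmid (-1.16 ± 0.29 SE, adjusted p = 0.00851). Myl3 read 11.72, 12.57, 11.65 and 11.93 against 11.80, 10.11, 10.73 and 10.59 (-1.16 ± 0.36 SE, adjusted p = 0.0218). In Myl3, p53 plasmid array 1 stood above 2 control plasmid arrays, and the call was lost without control plasmid array 2 (adjusted p = 0.058), p53 plasmid array 2 (0.0501) or p53 plasmid array 4 (0.0544). Mylk2, the kinase of the regulatory light chain, fell by a log2 difference of -0.11 ± 0.03 (SE) near the floor.

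Of the Z-disc genes, Myoz1 read 14.19, 14.03, 14.09 and 14.04 with the control plasmid and 13.38, 12.76, 13.24 and 13.38 with the p53 plasmid (-0.90 ± 0.13 SE, adjusted p = 0.000504). Actn3, the alpha-actinin of fast fibres, read 15.17, 15.12, 15.15 and 15.22 against 14.65, 14.30, 14.59 and 14.74 (-0.60 ± 0.09 SE, adjusted p = 0.000461). Actn2, the alpha-actinin of all fibres, read 14.50, 14.43, 14.21 and 14.43 against 13.94, 13.58, 13.71 and 13.86 (-0.62 ± 0.09 SE, adjusted p = 0.000462). No array overlapped in these 3 genes, and p53 plasmid array 2 was lowest in each. That array also had the lowest mean of the skeletal muscle markers, 14.13 against 14.42 to 14.48 on the other p53 plasmid arrays. What sets it apart was not tested.

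Myoz2 overlapped, at 11.76, 12.28, 11.42 and 12.19 with the control plasmid and 11.62, 11.11, 11.30 and 11.23 with the p53 plasmid (-0.60 ± 0.20 SE, adjusted p = 0.0291). Its call was lost without control plasmid array 2 (0.0734) or array 4 (0.0744), or p53 plasmid array 2 (0.0719), array 3 (0.0601) or array 4 (0.0663), and without a filter on dim genes (0.0501). Myoz3 was too dim to be tested here.

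On the thin filament the picture was mixed. Tpm1, which encodes the alpha-tropomyosin of fast muscle and also non-muscle tropomyosins, read 11.33, 11.55, 11.40 and 11.44 with the control plasmid and 12.38, 12.76, 12.41 and 12.70 with the p53 plasmid. The rise was 2.19-fold with no overlap (1.13 ± 0.09 SE, adjusted p = 3.39e-05). Tpm1 had 1 probe, and which of its transcripts that probe reads is not given in the sources used here. Tpm3, which encodes the slow alpha-tropomyosin and also non-muscle forms, read 11.56, 11.40, 11.49 and 10.97 against 12.59, 12.69, 12.52 and 12.68 on its brightest probe, a 2.40-fold rise (adjusted p = 5.79e-05).

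The other 3 probes of Tpm3 were dim, with means from 8.71 to 8.83, and each was called lower with the p53 plasmid, by log2 differences of -0.21 to -0.37. So the direction of Tpm3 depends on the probe, and the mean of its probes was not called (0.11, adjusted p = 0.2). Its call rests on 1 probe, and which transcripts each probe reads is not given in the sources used here. Actc1 read 12.08, 12.45, 11.99 and 12.47 with the control plasmid and 11.60, 11.49, 11.68 and 12.02 with the p53 plasmid, with p53 plasmid array 4 above control plasmid array 3 (-0.55 ± 0.15 SE, adjusted p = 0.0114). Its second probe was not called (-0.34, adjusted p = 0.246), nor was the mean of both (-0.45, adjusted p = 0.0724). Of the 3 embryonic or cardiac isoforms, 0 rose and 1 fell. None of the troponins with a probe was called, slow or fast, and Acta1, skeletal actin, had a difference of 0.01 ± 0.03 (SE). Tnnc2, Tnni2 and Acta1 lie near the ceiling, Tnnt3 just below it (mean 15.09) and Tnni1 near the floor, where differences are compressed.

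Values near the ceiling moved little. Of the 8 genes there, 2 were called with the p53 plasmid, Myl1 higher and Tpm2 lower, against 19 of the 28 genes below the ceiling. Over all genes, 47.4% of the 19 near the ceiling were called. Myl1, the fast essential light chain, read 15.47, 15.42, 15.47 and 15.51 against 15.57, 15.61, 15.56 and 15.52 (0.10 ± 0.03 SE, adjusted p = 0.0199), and its call was lost without control plasmid array 2 (0.0527) or p53 plasmid array 2 (0.052).

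The second probe of Myl1, below the ceiling, read 14.34, 14.46, 14.36 and 14.54 with the control plasmid and 14.02, 13.71, 13.85 and 13.90 with the p53 plasmid, a fall of 0.56 (log2 difference -0.56, adjusted p = 0.000247 in a fit over all probes). The direction of Myl1 therefore turned with the probe. Tpm2 fell on all 3 probes, by a log2 difference of -0.26 at the ceiling and by -0.84 and -1.18 below it. Actn3 fell on all 3 probes too, by -0.60 on the brightest and -1.54 on the dimmest. In Myh1 and Mybpc1 the brightest probe also gave the smallest fall among the probes, though it lies below the ceiling (means 13.92 and 13.95). In Ryr1, Jph2, Atp2a2 and Actc1, below the ceiling too, the brightest probe gave the largest.

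**Figure D2:**
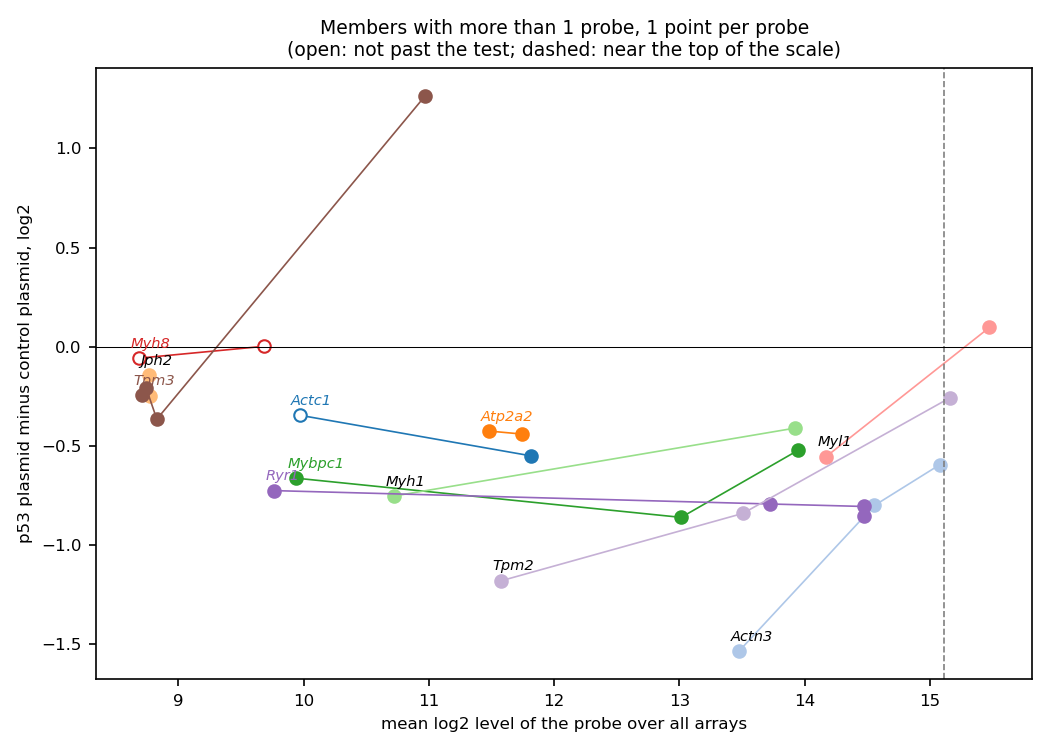
Log2 difference between p53 and control plasmid (y axis) of each probe against its mean log2 level over all arrays (x axis), for listed genes with more than 1 probe. Lines join probes of a gene, filled points passed the test and the dashed line marks 15.11. The probes of Tpm2 run from -0.26 at the bright end to -1.18, and Myl1 and Tpm3 have probes on both sides of 0.

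Of 11 fast isoforms tested with the p53 plasmid 1 rose and 6 fell (median -0.11), of 9 slow isoforms 1 rose and 4 fell (median -0.19), and of 4 shared genes 1 rose and 2 fell (median -0.12). Counted together, 50% of the listed genes tested fell, against 28.6% of all genes. The list was chosen with results of these arrays known, so this share is a description. The p53 plasmid arrays also had higher macrophage markers, 12.50 to 12.66 as the mean of 8 markers against 11.17 to 11.53 with the control plasmid, with 8 of 8 called higher. Of 7 skeletal muscle markers 6 fell, among them Ckm (-0.24), Pygm, the muscle glycogen phosphorylase (-1.20), Eno3 (-0.16) and Des (-0.23), with a median of -0.24. Of 6 fibroblast markers 3 were called higher (median 0.52), and of 4 endothelial markers 3 were called lower. Of 6 markers of regenerating fibres 2 were called higher and 2 had negative differences (lowest -0.43), where 30.2% of all genes rose. The part of other cells in the plasmid results was not tested.

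**Figure D3:**
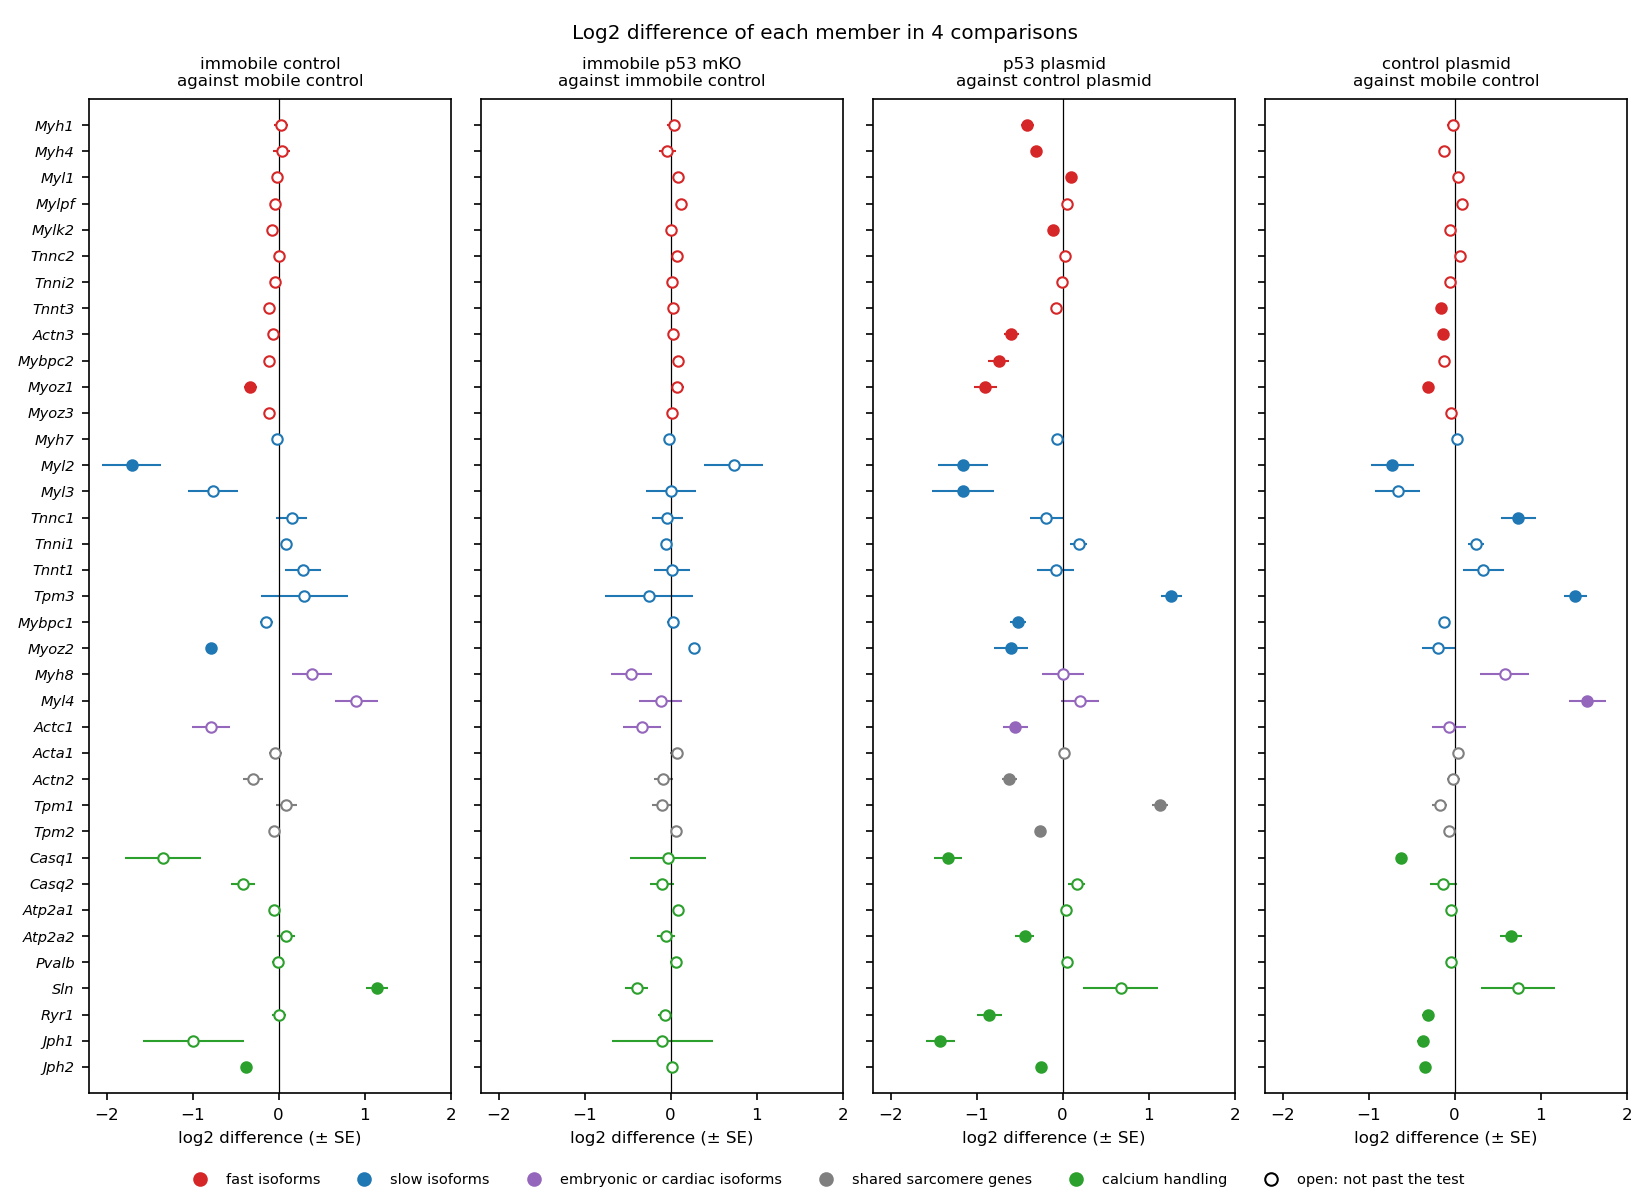
Log2 difference (x axis, with SE) of every tested listed gene in 4 comparisons, 1 panel each. Colours mark the functional group and filled points passed the test. In the p53 mKO panel no point is filled, and in the p53 plasmid panel 18 points lie filled to the left of 0 and 3 to the right.

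Control plasmid muscles were set beside mobile control limbs to describe the state from which the p53 plasmid was measured. These groups belong to separate experiments and differ in strain label, so experiment and transfection cannot be told apart. Myl4, Tpm3, Tnnc1 and Atp2a2 were higher in the control plasmid arrays, and Casq1, Jph1, Jph2, Ryr1, Myl2, Myoz1, Tnnt3 and Actn3 were lower. Of 9 calcium genes 1 was higher and 4 lower (median -0.13), of 9 slow isoforms 2 were higher and 1 lower, of 12 fast isoforms 0 and 3, and of 3 embryonic or cardiac isoforms 1 and 0. Of 37 genes, 4 were higher and 8 lower, where 19.2% of all genes were higher and 27.4% lower (limma, adjusted p under 0.05).

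Myl4 read 12.00, 12.58, 11.72 and 12.63 with the control plasmid, above every mobile array, a 2.91-fold difference (log2 1.54 ± 0.22 SE, adjusted p = 0.00079). With the p53 plasmid it read 12.50, 12.43, 12.72 and 12.10, within the range of the control plasmid arrays apart from array 3. Tpm3 stood 1.41 ± 0.13 (SE) higher on its brightest probe. Atp2a2 stood 0.66 ± 0.13 higher (adjusted p = 0.00376).

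Tnnc1, troponin C of slow and cardiac muscle, read 10.29, 10.08 and 10.20 in mobile limbs, 11.07, 11.41, 10.42 and 10.83 with the control plasmid and 10.93, 10.68, 10.78 and 10.57 with the p53 plasmid. The control plasmid arrays stood above all mobile ones (0.74 ± 0.20 SE, adjusted p = 0.0188), and the call was lost without mobile control array 2 (0.0705) or array 3 (0.0528). In immobile limbs Tnnc1 read 10.68, 10.26 and 10.09 (control) and 10.06, 10.23 and 10.63 (p53 mKO), overlapping with mobile limbs.

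Casq1 was 0.63 ± 0.05 lower on the log2 scale (difference -0.63, adjusted p = 3.21e-05), Jph1 had a difference of -0.37 ± 0.07, Jph2 of -0.34 ± 0.05 and Ryr1 of -0.31 ± 0.07 (SE). Myl2 overlapped between the groups (-0.72 ± 0.25, adjusted p = 0.0462), and its call was lost without mobile control array 2 (0.131) or array 3 (0.154), or control plasmid array 1 (0.0503), array 3 (0.103) or array 4 (0.0878). Myl3 was not called (adjusted p = 0.0713) but passed without mobile control array 2 (0.0458) or control plasmid array 2 (0.0147). When all 17 arrays were fitted together, 5 genes were higher and 2 lower, and the calls of Casq1 (adjusted p = 0.157), Jph1 (0.524), Ryr1 (0.0719), Actn3 (0.177), Myoz1 (0.0518) and Myl2 (0.103) were lost. Dimmer probes of Tpm2 (-0.44 and -0.76), Mybpc1 (-0.38) and Myl1 (-0.20) were called lower where the brightest were not, and the dimmer probes of Tpm3 were not called. Beside these values, all 8 macrophage markers and 5 of 6 markers of regenerating fibres were called higher with the control plasmid, among them Myog, myogenin (1.09), and Chrng, the fetal subunit of the acetylcholine receptor (1.69). Their part in these differences was not tested.

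The 2 experiments share no array, so the differences from immobilization and from the p53 plasmid can be set side by side. Over the 36 genes tested in both, 4 fell with immobilization and 18 with the p53 plasmid, and the 4, Myl2, Myoz2, Myoz1 and Jph2, were among the 18. That is 100% of the shorter list and 22.2% of the longer. Over all 10059 genes tested in both, 556 fell in both, 80.8% of those that fell with immobilization and 18.8% of those that fell with the plasmid. No listed gene rose in both. Across the 36 genes the log2 differences had a Pearson correlation of 0.71 and a Spearman correlation of 0.66, against 0.52 and 0.51 over all genes. These describe genes that share arrays and are not independent points.

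The difference between both effects was tested in 1 fit of all 17 arrays, a test added after the values were seen. Among all genes, 13.1% had a plasmid effect above the immobilization effect and 12.6% below it, and of the listed genes 2 lay above and 8 below. Ryr1 (difference of effects -0.86 ± 0.18 SE, adjusted p = 0.00429), Mybpc2 (-0.64 ± 0.15), Myoz1 (-0.57 ± 0.17), Atp2a2 (-0.53 ± 0.16), Actn3 (-0.53 ± 0.11), Myh1 (-0.44 ± 0.12), Mybpc1 (-0.38 ± 0.13) and Myh4 (-0.34 ± 0.12) lay below. Of these 8, 5 are fast isoforms, where 11 of the 36 listed genes tested are fast. This count depends on the errors as well as on the differences. The slow genes Myl3 (-0.39 ± 0.50) and Tnnt1 (-0.36 ± 0.32) were not called, at differences no smaller than that of Myh4. The count thus does not show that fast isoforms differ more than slow ones. Apart from Myoz1, none of the 8 was called with immobilization on its brightest probe. The brightest probe of Actn3 lies close to the ceiling, and its dimmest gave -0.52 with immobilization, not called, and -1.54 with the plasmid. On the dimmest probe of Ryr1 immobilization gave -0.54 and the plasmid -0.73, and the difference of effects was tested on the brightest probes alone.

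Tpm1 lay above (1.05 ± 0.16, adjusted p = 0.000614), and so did Casq2 (0.58 ± 0.18, adjusted p = 0.0289), which read 9.58, 9.40 and 10.03 in mobile, 9.30, 9.16 and 9.30 in immobile control, 9.13, 9.14 and 9.19 in immobile p53 mKO, 9.44, 9.84, 9.40 and 9.48 in control plasmid and 9.79, 9.74, 9.72 and 9.56 in p53 plasmid arrays. For Casq1 the effects differed by 0.01 ± 0.48 and for Myl2 by 0.55 ± 0.48, errors too wide to show that the effects are alike. Single arrays bear on these counts. The count below was 5 without mobile control array 2 or array 3, 4 without immobile control array 2, and 5 without control plasmid array 1 or array 4. The count above was 1 without mobile control array 3, immobile control array 2, control plasmid array 1, array 3 or array 4, or p53 plasmid array 1 or array 2.

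**Figure D4:**
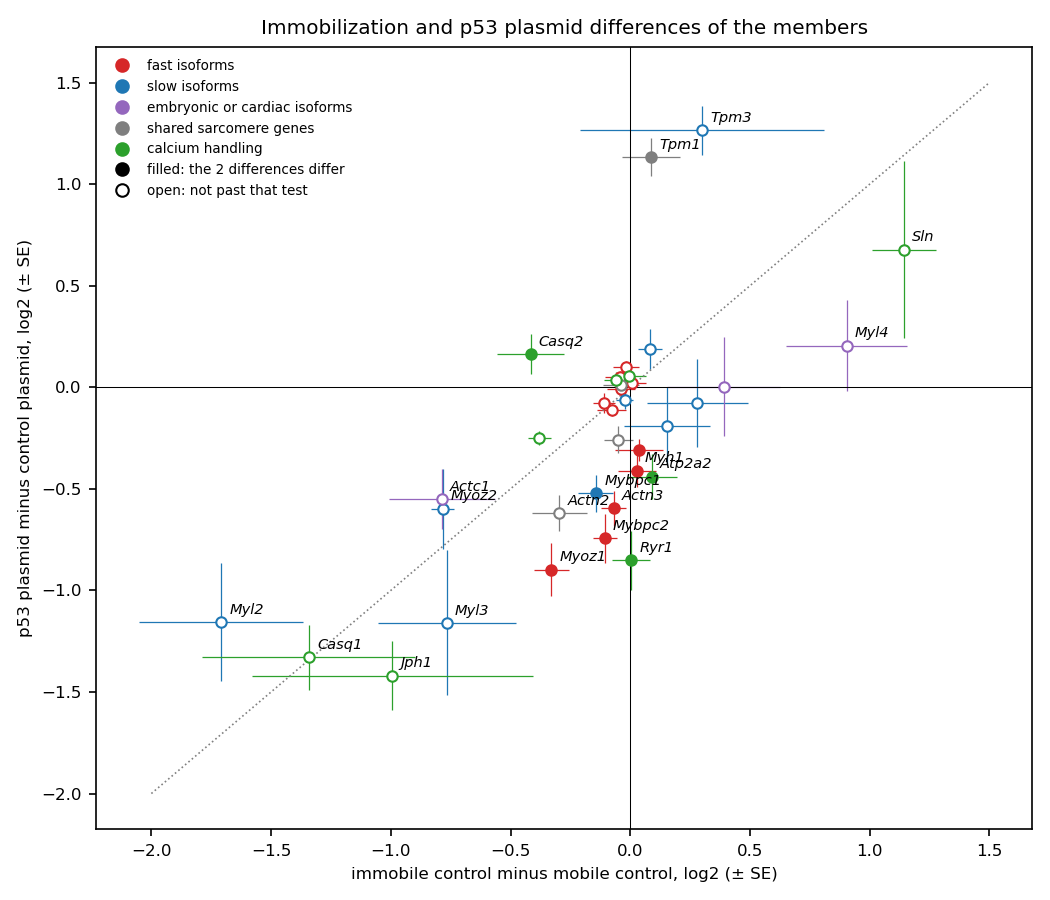
Log2 difference with the p53 plasmid (y axis) against log2 difference with immobilization of control mice (x axis) for the 36 listed genes tested in both, with SE bars. Filled points are genes whose 2 differences differ by the test, and the dotted line marks equal differences. Ryr1, Mybpc2 and Actn3 lie low near the vertical 0 line, and Tpm1 lies high beside it.

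A longer list of 71 further genes of the sarcomere and the triad, 54 with a probe, gave the surroundings of these genes. With immobilization 3 of 50 tested rose and 7 fell, beside 5.1% higher and 6.36% lower among all genes tested. The 4 with the smallest p were Asph, whose products include junctin of the reticulum (-0.68), Hrc, the histidine-rich calcium-binding protein (-0.60), Bin1, amphiphysin 2 of the T-tubule (0.33), and Homer1, a scaffold of calcium channels (-0.55). In the comparison of the immobile genotypes 0 rose and 0 fell. Against mobile limbs, immobile p53 mKO limbs had 3 of 50 higher and 6 lower, beside 4.47% and 5.28% of all genes. The 4 that led were Asph (-0.62), Synpo2l (-0.71), Hrc (-0.54) and Camk2a (-0.77).

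With the p53 plasmid 2 of these 50 genes rose and 40 fell, with a median log2 difference of -0.77. Over all genes tested 30.2% rose and 28.6% fell. The 4 with the smallest p were Smyd1, a methyltransferase of muscle (-0.61), Asph (-1.09), Jsrp1, the junctional protein JP-45 (-1.11), and Ttn, titin (-0.46). Between control plasmid and mobile arrays 5 of 49 were higher and 25 lower, beside 19.2% and 27.4% of all genes. The 4 that led were Smyd1 (-0.44), Ldb3 of the Z-disc (-0.63), Tmod1, tropomodulin (-0.69), and Camk2b (-0.49).

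Over the 5 comparisons, 25 of the 37 genes with a probe were called at least once on the brightest probe and 12 never. The same share over all genes was not counted, so the 25 are not a trait of this list. The p53 plasmid comparison alone called 30.2% of all genes higher and 28.6% lower. The 12 were the fast genes Mylpf, Tnnc2, Tnni2 and Myoz3, the slow genes Myh7, Tnni1 and Tnnt1, the perinatal Myh8, Acta1, and the calcium genes Casq2, Atp2a1 and Pvalb. Of these, 6 lie near the ceiling, Mylpf, Tnnc2, Tnni2, Acta1, Atp2a1 and Pvalb, and Myh7, Tnni1 and Myoz3 near the floor, where the arrays measure little difference.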

How the data were processed

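RNA from 17 tibialis anterior samples was extracted with TRIzol and RNeasy columns with DNase, then amplified and labelled as biotinylated cRNA, per the labels' protocols. The deposited table holds 25697 probes with values taken here as log2, since they run from 8.21 to 15.61. The authors' normalization, background correction and log base are not given in the sources used here, but array medians agree within 8.48 to 8.5. Depth has no meaning for arrays, and their number limits the precision.

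A probe table named 23978 probes with 1 gene symbol each and left 1719 unnamed, and 99.9% of the symbols matched the reference by gene identifier. Each gene was read from its brightest probe. Dim genes were filtered out: a gene had to exceed each array's 40th percentile on a number of arrays no lower than the size of the smallest group fitted. Differences were tested with limma 3.58.1 in R 4.3.3 (lmFit and eBayes), tested on simulated data first, with Benjamini-Hochberg adjustment over all genes tested and a threshold of 0.05. The fits held the 9 immobilization arrays (10842 genes), the 8 transfection arrays (10398 genes), the control plasmid with the mobile control arrays (10607 genes) and, for the difference of effects, all arrays (10059 genes). Errors are standard errors (SE) and "called" means past this test. Single-probe results come from a fit over all probes.

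The listed genes, their groups and the longer lists were chosen with earlier results of these data known. Values on every array are given for genes called with a log2 difference of at least 0.5 and for the myosin heavy chains, and for other genes that a comparison turns on, which were chosen after their values were seen. Of the longer list, the 4 called genes with the smallest p are named. Samples with the same array number were checked for pairing by the correlation of their deviations from the group means. Immobile control and immobile p53 mKO arrays deviated together (correlation 0.48 to 0.81 over 3 pairs). In each other comparison the lowest correlation lay between -0.13 and 0.07 and the highest between 0.08 and 0.24. None of those had every pair above the 0.1 set as the minimum. Alternatives were other filters, normalizations, prior variances, probe rules, array weights, a fit of all arrays, the array number as a block, and the omission of arrays. Promoter sequences were taken from RefSeq on GRCm38.p6.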

Additional observations from a re-analysis of the deposited data

Results flagged for a closer look

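Among the 74 gene and group combinations with 4 arrays, 3 had an array that stood apart from the other 3 by Dixon's criterion, and chance flags about 1 in 20 groups. Ryr1 on p53 plasmid array 2 read 13.21 against 13.78 to 13.89 on the other p53 plasmid arrays. Tpm2 on control plasmid array 2 read 15.27 against 15.15 to 15.17, and Pvalb on p53 plasmid array 3 read 15.47 against 15.37 to 15.38, both near the ceiling. The calls of Ryr1 and Tpm2 with the p53 plasmid held under every single-array omission.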

How the results depend on the processing

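Leaving out each array in turn gave 1 to 2 listed genes higher and 2 to 4 lower for immobile against mobile control limbs, 0 to 2 and 2 to 5 for p53 mKO immobile limbs against mobile controls, 0 and 0 between the immobile genotypes, 2 to 4 and 16 to 18 for the plasmids, 3 to 6 and 7 to 10 for control plasmid against mobile limbs, and 1 to 3 and 4 to 8 for the difference of effects. Of the called genes, 3 of 5, 2 of 4, 18 of 21 and 10 of 12 kept their calls throughout these omissions, in the order immobile control, immobile p53 mKO, p53 plasmid and control plasmid. Under all alternatives run, the omissions included, 2 of 5, 1 of 4, 16 of 21 and 5 of 12 kept them.

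For immobile against mobile control limbs (1 higher, 4 lower), array weights gave 3 and 13, the trended prior variance 2 higher, the mean of all probes 8 lower, a fit of all arrays 7 lower, the replicate block 2 and 7, and omission of both immobile arrays numbered 3 gave 2 and 9. For p53 mKO immobile limbs against mobile controls (1 and 3), array weights gave 2 and 10, a fit of all arrays 0 and 6, the replicate block 1 and 9, and the omission of both arrays 2 and 8. With the p53 plasmid, the mean of all probes gave 1 higher. For control plasmid against mobile limbs, the fit of all arrays gave 2 lower. For the difference of effects, array weights gave 8 higher. The replicate block otherwise left the comparison of the immobile genotypes at 0 and 0. The only reversed result among the genes and settings run was Myl1 with the p53 plasmid, at -0.23 with the mean of its probes and -0.56 on the probe below the ceiling, where the 2 probes themselves point opposite ways. The cause of the other changes was not tested. Values near the ceiling and floor limit what the genes there can show.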
